A study of Mus musculus with 2 samples.

Results

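Zone 3 hepatocytes are the hepatocytes around the central vein of the liver lobule. They were examined here as 1666 nuclei out of 20111 nucleus barcodes in 2 libraries of liver from mice with diet-induced metabolic dysfunction–associated steatohepatitis (MASH), 1030 nuclei in the library labelled Flox and 636 in the library labelled HKO. A nucleus was taken as a member when it held at least 300 genes and 3000 unique molecular identifiers (UMIs, counts of single captured RNA molecules), at most 1 UMI summed over 8 markers of other liver cells (*Reln*, *Dcn*, *Ptprb*, *Clec4g*, *Ms4a7*, *Clec4f*, *Pkhd1* and *Bcl11b*), and at least 0.1% of its UMIs from *Glul* and *Slc1a2* together. The first 3 conditions left 9867 hepatocyte nuclei, 5797 labelled Flox and 4070 labelled HKO, and the 8201 of these that did not meet the last condition are called other hepatocytes below. The levels of *Glul* and *Slc1a2* therefore chose the members and are given as a description.

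The study profiled liver by single-nucleus RNA-seq (snRNA-seq) to compare mice with and without hepatocyte deletion of *Themis*, a T cell signalling adaptor gene that hepatocytes also express. All mice were male C57BL6/J mice of a line with loxP-flanked *Themis* alleles, and all ate the MASH diet for 5 months from an age of 10 to 12 weeks, with 40 kcal% from fat, 20 kcal% from fructose, and 2% cholesterol. The Flox mice (*Themis* flox/flox) are labelled with those alleles alone, whereas the HKO mice (*Themis* Alb-Cre) came from a cross to a line with Cre recombinase driven by the albumin promoter, which is active in hepatocytes. Tissue from several livers of each genotype was combined into 1 library, so that no value below has a replicate, no difference between the libraries was tested, and the genotype cannot be told apart from any other difference between them. There were no mice on a chow diet in these libraries, so that nothing here measures the effect of the diet.

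Zonation of the liver lobule is set in large part by Wnt ligands from the endothelial cells of the central vein. They keep β-catenin stable in the nearest hepatocytes, where β-catenin and transcription factors of the TCF/LEF family turn on a pericentral set of genes. The hepatocytes next to the vein are known as the glutamine-synthesizing cells of the liver: they take up glutamate and join it with ammonia that escaped the periportal urea cycle. Periportal hepatocytes (zone 1) hold instead most of the urea cycle, gluconeogenesis, and the breakdown of amino acids such as histidine and serine.

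Because many of the zone 3 genes described below are known targets of this pathway, their promoters are shown as context, as RefSeq gives them for GRCm38.p6. The window from 250 bases before to 50 bases after each gene's start was searched on both strands for the 7 letters ATCAAAG, the core of the site that TCF/LEF factors bind. The motif was present in 3.73% of all 32851 promoters of the table and in 3.07% of 9033 promoters of genes measured in the zone comparison. Of the 157 genes called higher in zone 3 in both libraries (1.34% of those measured, by the rule given below and with the rule genes included), 109 had a promoter in the table and 12 of these (11.0%) held the motif. Among the genes lower in zone 3 it was 7 of 137 (5.11%). These shares are descriptions, and a match is not evidence that a factor binds there. The Wnt targets *Sp5*, *Lect2*, and *Tnfrsf19* held the motif, out of 10 genes of a fixed list of Wnt targets whose promoters were in the table. Their 250 bases before the start are printed 5′ to 3′ on the gene's own strand, with the motif or its reverse complement in capitals, at chr2:70474673-70474922 (plus strand), chr13:56548539-56548788 (minus strand), and chr14:61037988-61038237 (minus strand).
Sp5: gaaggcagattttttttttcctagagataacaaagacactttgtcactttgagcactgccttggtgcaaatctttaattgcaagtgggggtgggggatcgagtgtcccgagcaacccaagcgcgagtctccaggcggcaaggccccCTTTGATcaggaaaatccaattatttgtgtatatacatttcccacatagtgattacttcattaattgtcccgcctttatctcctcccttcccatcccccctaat
Lect2: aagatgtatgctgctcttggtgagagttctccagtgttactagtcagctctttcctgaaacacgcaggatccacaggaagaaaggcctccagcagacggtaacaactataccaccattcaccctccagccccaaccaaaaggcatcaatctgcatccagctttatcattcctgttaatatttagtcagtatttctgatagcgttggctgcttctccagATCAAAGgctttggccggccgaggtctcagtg
Tnfrsf19: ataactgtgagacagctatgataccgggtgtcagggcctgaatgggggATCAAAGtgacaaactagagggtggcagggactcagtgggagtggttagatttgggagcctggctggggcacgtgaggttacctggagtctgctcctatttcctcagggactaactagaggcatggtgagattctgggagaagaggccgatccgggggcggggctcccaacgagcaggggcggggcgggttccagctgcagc

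The members held 7097922 (labelled Flox) and 3780453 (labelled HKO) UMIs, with medians of 6651.5 and 5559 UMIs per nucleus. Throughout, the first value of a pair belongs to the library labelled Flox. Over all barcodes the libraries held 58171337 and 40475938 UMIs, and the median depth of a barcode was 6216 and 2227.5 UMIs. Levels are CPM, the usual count scaling, from the UMIs of a gene and all UMIs of the summed nuclei, and all intervals are 95% intervals that cover counting error only. A gene absent from a group was given the limit that 3 counts would allow. In the members mitochondrial genes took 0.195% and 0.160% of UMIs and the nuclear RNA *Malat1* took 20.9% and 20.8%. Of the barcode sequences, 27 occurred in both libraries, and 0 of these were members in both.

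*Themis* was examined first because it is the gene that the HKO genotype was designed to lose (chr10:28668360-28883818, plus strand, GRCm38). It was higher, not lower, in the library labelled HKO. Zone 3 nuclei held 2177 *Themis* UMIs, or 307 CPM, in the library labelled Flox, and 1638 UMIs, or 433 CPM, in the library labelled HKO. The ratio was 1.41 (1.32–1.51). In the other hepatocytes the levels were 132 and 226 CPM. The measured level thus went against the label in both classes of hepatocyte, and for this reason the libraries are named by their labels throughout. If the labels had been exchanged, the direction of every ratio between the libraries would turn, which was not tested. Counts from the 3′ end are summed over a gene and do not show whether an exon was lost from the transcript. Among genes for known partners of THEMIS, *Grb2*, an adaptor of receptor signalling, was at 21.0 and 17.7 CPM (ratio 0.84, 0.62–1.13). *Ptpn11*, which encodes the phosphatase SHP2, was at 27.2 and 30.7 CPM (ratio 1.13, 0.89–1.43). Both intervals include 1. *Ptpn6* (32 and 11 UMIs) and the paralog *Themis2* (3 and 2 UMIs) were too sparse to compare.

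The members made up 17.8% (16.8–18.8) of hepatocyte nuclei in the library labelled Flox and 15.6% (14.5–16.8) in the library labelled HKO, a ratio of shares of 0.879 (0.804–0.963). This ratio depended on how the set was drawn. With *Glul* as the only gene of the rule the shares were 13.0% and 13.4%, with a ratio of 1.02. As a share of all nuclei with at least 300 genes, zone 3 nuclei were 11.0% and 5.93%, which also counts the non-parenchymal and shallow nuclei of each library. The requirement of 3000 UMIs removed 2866 and 5982 nuclei. Of these, 92 and 261 were within the limit of the excluded markers and had 0.1% or more of their UMIs from the rule genes. Fewer zone 3 nuclei in the tissue and fewer zone 3 nuclei captured or deep enough to pass cannot be told apart.

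Within the members the share of UMIs from *Glul* and *Slc1a2* had a median of 0.478% in the library labelled Flox and 0.545% in the library labelled HKO, with ranges of 0.101% to 1.21% and 0.1001% to 1.33%. *Glul* (chr1:153899944-153909723, plus strand) encodes glutamine synthetase, and *Slc1a2* (chr2:102658659-102790784, plus strand) encodes the glutamate transporter GLT-1. Both transcripts were found together in 977 nuclei (94.9%) and 589 nuclei (92.6%). *Slc1a2* alone occurred in 49 and 20 nuclei and *Glul* alone in 4 and 27. The nuclei of highest share, at 0.6% or more, were 318 of 1030 (30.9%, 28.1–33.8) in the library labelled Flox and 276 of 636 (43.4%, 39.5–47.3) in the library labelled HKO. Levels of *Glul* were 2121 and 2712 CPM in zone 3 and 43.3 and 55.7 CPM in other hepatocytes, and those of *Slc1a2* were 2364 and 2628 CPM against 18.7 and 10.5 CPM.

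Each rule gene could be read in nuclei chosen by the other alone. In the 756 and 544 nuclei where *Glul* by itself reached 0.1% of UMIs, *Slc1a2* was 22.4-fold and 52.0-fold the level of the remaining hepatocytes. In the 929 and 541 nuclei chosen on *Slc1a2* by itself, *Glul* was 30.9-fold and 30.2-fold the remaining level. The genes for glutamate uptake and for glutamine synthesis thus marked largely the same nuclei in both libraries. On either side of the limit few nuclei could be read. *Oat* stood at 212 and 122 CPM in the 51 and 23 nuclei just outside (0.08% to 0.1%). It stood at 190 and 171 CPM in the 26 and 24 nuclei just inside (0.1% to 0.12%). In the library labelled HKO these *Oat* levels rest on 16 and 26 UMIs. *Lgr5* was at 87.5 and 45.7 CPM outside and at 100 and 52.5 CPM inside. *Axin2* was at 34.6 and 22.8 CPM outside and at 44.6 and 65.7 CPM inside, with 3 and 10 UMIs in the library labelled HKO.

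The label was checked with the pericentral markers that the rule did not use. *Oat* (chr7:132557478-132576398, minus strand) encodes ornithine aminotransferase, which links ornithine to glutamate. It was at 453 and 386 CPM in zone 3 and at 31.6 and 21.9 CPM in other hepatocytes, which is 14.3-fold (13.4–15.3) and 17.6-fold (15.9–19.5). *Cyp2e1* (chr7:140763739-140774987, plus strand) encodes an ethanol- and acetaminophen-oxidizing cytochrome P450. Its levels were 2070 and 1309 CPM in zone 3 against 1012 and 701 CPM, a ratio of 2.04 (2.01–2.08) and 1.87 (1.81–1.93). Both markers thus stood higher in zone 3, with *Oat* the more restricted. After each nucleus was thinned to 1000 UMIs, *Oat* was detected in 35.7% and 27.7% of zone 3 nuclei, 2.92% and 1.72% of other hepatocytes, and 4.19% and 1.20% of endothelial reference nuclei. The last share was taken as the background, and the share in other hepatocytes did not stand above it in the library labelled Flox. In the library labelled HKO the intervals of these 2 shares overlapped (1.31–2.21 and 0.44–2.59). *Cyp2e1* was detected in 86.8% and 70.1% of zone 3 nuclei, 46.4% and 41.2% of other hepatocytes, and 23.0% and 15.2% of endothelial nuclei. The median depths of the endothelial nuclei before thinning were 1407 and 1040 UMIs.

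Some endothelial nuclei also met the threshold. At an equal depth of 3000 UMIs, 18.3% and 16.2% of the hepatocyte nuclei met the threshold, and so did 21 of 107 (19.6%, 12.6–28.4) and 9 of 60 (15.0%, 7.10–26.6) of the few endothelial reference nuclei this deep. At that depth 3 UMIs are enough to pass. Whether these UMIs came from free RNA, from the endothelial cells, or from doublets was not tested. The median member held 28 and 29 UMIs of the rule genes, and all members held at least 0.1% of their UMIs in a set of 8 hepatocyte markers. Those markers took a median of 0.647% and 0.534% of UMIs in zone 3 and 0.695% and 0.568% in other hepatocytes. A UMI of the 8 excluded markers was present in 18.3% and 21.9% of members and in 21.9% and 26.4% of other hepatocytes.

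Markers of other cell types were summed over whole lists to show what else the members held. The 9 endothelial markers summed to 25.4 and 48.1 CPM in zone 3 (27.0 and 39.8 CPM in other hepatocytes). The 7 markers of the pericentral endothelium, which is the source of Wnt ligands and R-spondin 3, summed to 1.83 and 2.12 CPM, with *Wnt9b* at 0 UMIs in both libraries. The 9 stellate cell markers summed to 20.3 and 25.4 CPM. Marker sums of these 3 types were thus low beside those of hepatocyte genes, and the endothelial sum was higher in the library labelled HKO. The 10 macrophage markers summed to 22.1 and 43.1 CPM, the 8 cholangiocyte markers to 27.3 and 45.8 CPM (with *Krt19* and *Cftr* at 0 UMIs), the 7 T cell markers to 2.25 and 3.44 CPM, and the 10 B and plasma cell markers to 28.5 and 22.2 CPM. The excluded markers belong to these lists, so that the sums were held down by the rule. Their part in the results below was not tested.

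Across hepatocytes the pericentral program changed in steps along the share of *Glul* and *Slc1a2*, a description along the rule's own measure. *Oat* stood at 20.8 and 15.2 CPM in nuclei with no UMI of the rule genes, at 173 and 109 CPM in those between 0.05% and 0.1%, at 245 and 129 CPM between 0.1% and 0.2%, and at 613 and 533 CPM in those at 0.6% or more. Inside the members *Oat* was thus still graded, and *Lgr5* likewise went from 95.6 to 211 CPM and from 116 to 172 CPM between the lowest and the highest member bin. *Axin2* went from 59.95 to 88.6 CPM and from 77.9 to 94.8 CPM, and *Cyp1a2* from 153 to 224 CPM and from 58.9 to 139 CPM. *Cyp2e1* was broader: it had reached 1871 and 1279 CPM in the bin just under the threshold and stood at 2382 and 1413 CPM in the highest bin. The periportal gene *Hal* ran the other way, from 169 and 97.9 CPM in nuclei without rule-gene UMIs to 2.11 and 1.91 CPM at 0.6% or more.

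**Figure D1:**
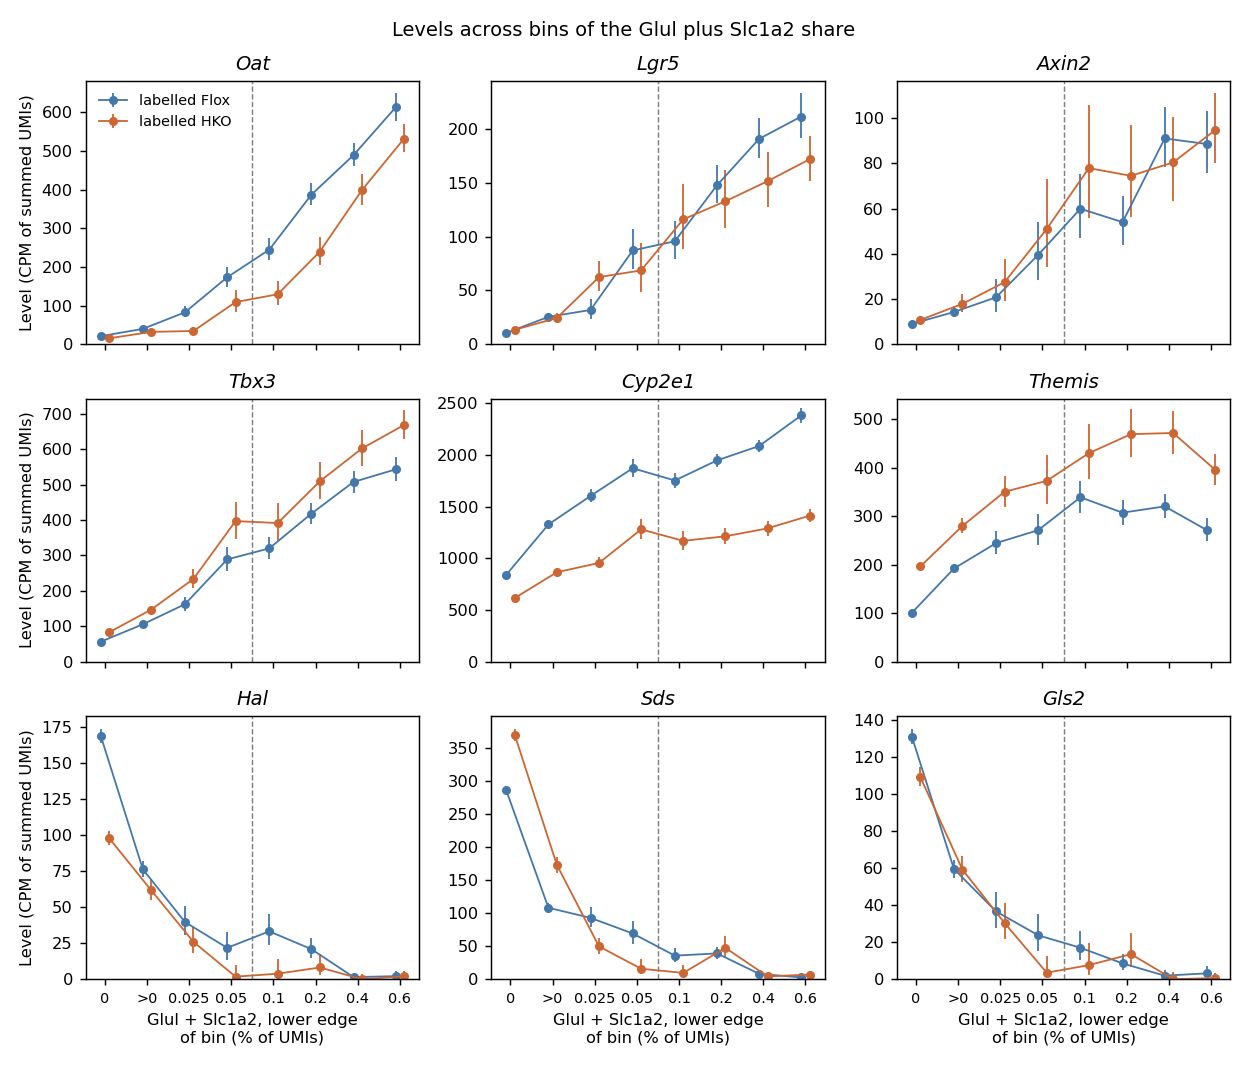
Levels (CPM of summed UMIs) of 9 genes in hepatocyte nuclei binned by their share of UMIs from Glul plus Slc1a2, in the libraries labelled Flox (blue) and HKO (orange), where bars are 95% Poisson intervals and the dashed line is the 0.1% limit of the zone 3 set. Oat goes from 20.8 and 15.2 CPM in the lowest bin to 613 and 533 CPM in the highest, while Hal goes from 169 and 97.9 CPM to 2.11 and 1.91 CPM.

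The level of *Themis* also followed the zone. It was 2.32-fold (2.20–2.44) higher in zone 3 than in other hepatocytes in the library labelled Flox and 1.92-fold (1.81–2.03) higher in the library labelled HKO. It was found, at 1000 UMIs per nucleus, in 22.0% and 33.2% of zone 3 nuclei, 10.6% and 18.4% of other hepatocytes, and 0.578% and 2.40% of endothelial nuclei. Along the bins it climbed from 101 and 196 CPM in nuclei without rule-gene UMIs to 339 and 430 CPM just inside the threshold, and did not go on climbing in the highest bin (271 and 395 CPM). The 10% of other hepatocytes richest in the periportal genes *Cyp2f2*, *Hal*, *Gls2*, and *Sds* were the farthest from zone 3. They held 3 *Themis* UMIs (0.96 CPM, 0.20–2.81) in the library labelled Flox and 94 UMIs (39.8 CPM, 32.2–48.8) in the library labelled HKO. *Themis* was thus lowest in the most periportal nuclei in both libraries, and there the level in the library labelled HKO was the higher one as well.

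Zone 3 was next set against the other hepatocytes gene by gene. A gene was measured with at least 50 UMIs in the 2 classes together in each library, and was called when the ratio of levels, with 1 CPM added to each, was 2-fold or more in the same direction in both libraries. Of 11704 measured genes, 157 were higher in zone 3 (1.34%) and 198 were lower (1.69%), where the 157 include *Glul* and *Slc1a2*, which chose the nuclei. In the single libraries 218 and 203 genes were higher and 318 and 294 lower, and 0 genes were called in opposite directions. Across 11702 genes other than *Glul* and *Slc1a2* the log2 ratios of both libraries had a Pearson r of 0.783 and a Spearman rho of 0.531. This is a correlation across genes, which are not independent replicates and share the rule and the depth of their library.

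Wnt target genes were mostly higher in zone 3. Of 15 measured members of the list 12 were higher in zone 3, against 1.34% of all measured genes, and 0 were lower, against 1.69%. The list had median log2 ratios of 2.23 and 1.84, where the medians of all genes were -0.02 and -0.02. *Axin2*, a negative feedback gene of the pathway, was at 75.2 and 84.9 CPM in zone 3 against 11.5 and 14.1 CPM in other hepatocytes. *Lgr5*, the R-spondin receptor that potentiates Wnt signals, was at 168 and 151 CPM against 16.7 and 19.7 CPM. The zone ratio of *Axin2* was 6.55 (5.77–7.44) and 6.02 (5.15–7.05), and that of *Lgr5* was 10.1 (9.14–11.1) and 7.67 (6.77–8.69). *Tbx3*, a T-box transcription factor, was at 461 and 582 CPM against 78.2 and 112 CPM. Its antisense neighbour *Tbx3os1* was at 350 and 238 CPM against 9.90 and 6.45 CPM. Since the sources used here do not state whether counting used strand at overlaps, reads of this pair may not be fully separated.

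The narrowest of the Wnt targets were *Nkd1* and *Rhbg*. *Nkd1*, an antagonist of Dishevelled, was at 17.6 and 20.6 CPM in zone 3 and at 0.30 and 0.04 CPM elsewhere, where the last value is 1 UMI. *Rhbg*, an ammonium transporter (chr3:88242874-88254709, minus strand), was at 23.8 and 21.2 CPM against 0.73 and 0.73 CPM, a ratio of 32.8 (22.0–50.4) and 29.0 (17.0–52.2). The genes whose promoters are printed above were also higher in zone 3. *Sp5*, a transcription factor, stood at 34.0 and 14.6 CPM against 3.26 and 1.85 CPM. *Lect2*, a secreted hepatokine, was at 107 and 47.4 CPM against 22.8 and 17.0 CPM. *Tnfrsf19*, a TNF receptor family member, was at 39.0 and 43.1 CPM against 5.24 and 11.6 CPM, and its zone ratio was 7.45 (6.20–8.96) and 3.72 (3.04–4.53). *Tnfrsf19* thus differed less between the classes in the library labelled HKO, because its level in other hepatocytes was higher there.

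*Rnf43*, *Notum*, and *Znrf3* had lower zone ratios than *Axin2* and *Lgr5*. *Rnf43*, a ubiquitin ligase that removes Frizzled receptors, was at 368 and 358 CPM in zone 3 and at 125 and 121 CPM elsewhere. *Notum*, a secreted Wnt deacylase, was at 185 and 186 CPM against 66.5 and 51.5 CPM. *Znrf3*, the paralog of *Rnf43*, was at 38.3 and 45.8 CPM against 17.1 and 24.03 CPM and was short of 2-fold in the library labelled HKO. *Tcf7* was sparse, with 40 and 20 UMIs in zone 3, and *Lef1* had 9 and 15 UMIs. Cyclin D1, often named as a Wnt target, did not follow the list: *Ccnd1* was at 3.66 and 36.8 CPM in zone 3 and at 21.9 and 74.5 CPM in other hepatocytes. The machinery of the pathway was not zonated in the same way. Of 24 genes for its receptors, destruction complex, and transcription factors, 1 was higher in zone 3 (the co-receptor gene *Lrp5*, 36.2 and 46.3 CPM against 15.1 and 21.3 CPM) and 1 was lower (*Tcf7l1*, 8 UMIs in each library). Over all measured genes the shares were 1.34% higher and 1.69% lower. The median log2 ratios of this list were -0.01 and -0.02.

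Genes of ammonia and glutamate handling were split. Of 16 measured members besides the rule genes, 3 were higher in zone 3 (*Oat*, *Rhbg*, and *Slc1a4*) and 1 was lower, against 1.34% and 1.69% of all measured genes. *Slc1a4*, a neutral amino acid transporter, was at 6.76 and 14.8 CPM against 0.98 and 2.97 CPM. *Gls2*, the liver glutaminase that releases ammonia from glutamine, was the lower gene, at 6.62 and 3.97 CPM against 108 and 92.3 CPM. The nuclei rich in glutamine synthetase were thus poor in glutaminase. *Prodh*, proline dehydrogenase, was near 2-fold higher in zone 3 (543 and 449 CPM against 286 and 223 CPM). *Glud1*, glutamate dehydrogenase, was nearly flat (475 and 502 CPM against 372 and 479 CPM). The glutamine transporter genes *Slc38a2* (446 and 649 CPM) and *Slc38a3* (566 and 632 CPM), the aminotransferase genes *Got1*, *Got2*, *Gpt*, and *Gpt2*, and *Aldh4a1* and *Prodh2* were within 2-fold of the other hepatocytes in both libraries. *Slc38a4* was lower without reaching 2-fold, at 291 and 293 CPM against 512 and 566 CPM. *Aldh18a1* (0 and 1 UMI) and *Asns* (4 and 0 UMIs) were near or under the limit of counting.

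Of 23 genes for pericentral xenobiotic metabolism 14 were higher in zone 3, against a background of 1.34%, and 0 were lower, with median log2 ratios of 1.68 and 1.22. *Cyp1a2* (chr9:57676937-57683703, minus strand), which oxidizes caffeine and aromatic amines, was at 190 and 115 CPM against 39.8 and 17.7 CPM. *Slc22a3*, an organic cation transporter, was at 55.8 and 51.3 CPM against 4.66 and 3.87 CPM, and *Lhpp*, a phosphohistidine phosphatase, at 51.7 and 37.3 CPM against 5.01 and 2.32 CPM. Outside the lists, the highest ratios that held in both libraries included *Slc1a5*, a glutamine transporter (29.6 and 28.0 CPM against 1.40 and 1.63 CPM), and *Prrx1*, a homeobox factor (30.4 and 44.4 CPM against 2.63 and 4.43 CPM). *Vldlr*, the very low density lipoprotein receptor, was at 24.5 and 99.2 CPM against 0.63 and 12.2 CPM, and the unnamed locus *Gm3289* at 59.0 and 96.8 CPM against 5.29 and 4.90 CPM.

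Periportal genes made up the other side. Of 26 measured periportal genes 19 were lower in zone 3, against a background of 1.69%, and 0 were higher, with median log2 ratios of -2.23 and -2.51. *Cps1*, which starts the urea cycle, was at 47.3 and 48.9 CPM against 537 and 679 CPM, and *Arg1*, which ends it, at 45.7 and 38.6 CPM against 718 and 940 CPM. *Arg1* was thus 15.7-fold and 24.3-fold lower in zone 3. *Hal*, which degrades histidine, was at 12.3 and 2.91 CPM against 138 and 84.2 CPM. *Sds*, serine dehydratase, was at 19.6 and 14.5 CPM against 231 and 304 CPM. *Cyp2f2* was at 15.6 and 3.97 CPM against 167 and 102 CPM. *Pck1*, the gate of gluconeogenesis, was only 2.28-fold and 2.79-fold lower (1265 and 1273 CPM against 2887 and 3554 CPM).

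The 10 lowest ratios that held in both libraries included *Cps1*, *Arg1*, *Sds*, *Gls2*, and *Etnppl* of this list and 5 genes outside it. *Etnppl*, a phosphoethanolamine lyase, was 20.9-fold and 45.9-fold lower, and *Sfxn1*, the mitochondrial serine carrier, 18.7-fold and 26.8-fold lower. *Aspg*, an asparaginase, was at 16.5 and 19.8 CPM against 269 and 406 CPM. *Gldc*, the glycine decarboxylase, was at 2.82 and 0.79 CPM against 46.0 and 57.2 CPM, where the zone 3 level of the library labelled HKO rests on 3 UMIs. *Cryl1*, the λ-crystallin gene, had 8 UMIs and 1 UMI in zone 3, and the unnamed locus *AC135859.1* was at 3.94 and 3.17 CPM against 81.7 and 90.7 CPM. The midlobular gene *Hamp*, for the iron hormone hepcidin, was at 83.1 and 54.0 CPM against 665 and 369 CPM. *Alb* was 1.58-fold and 1.23-fold lower.

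**Figure D2:**
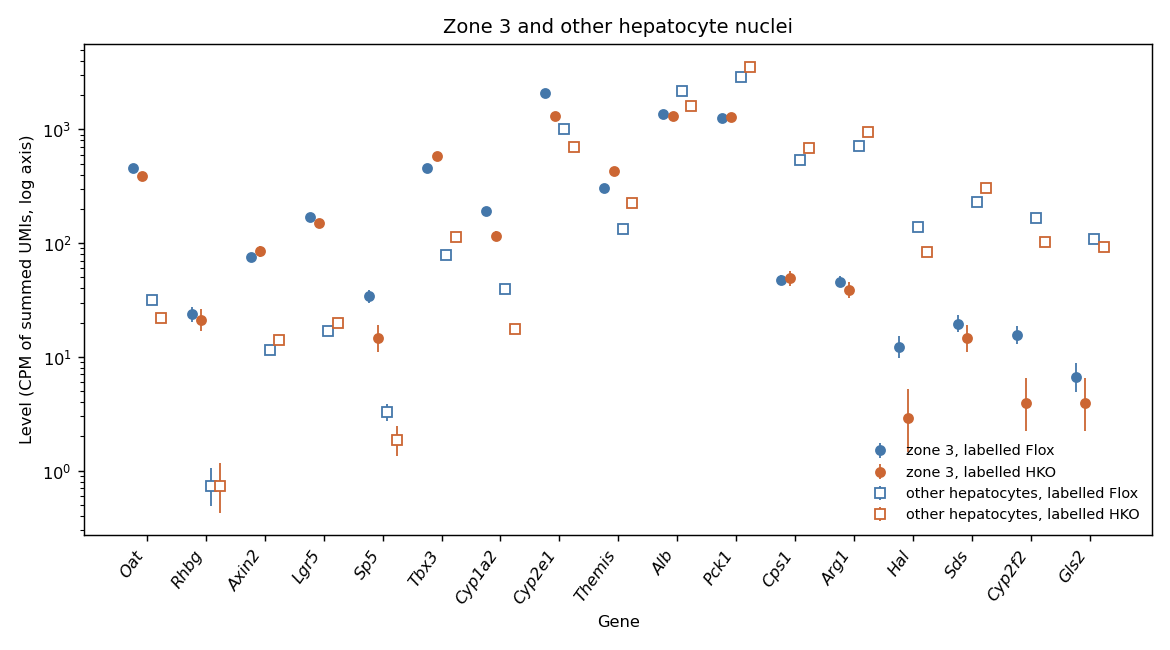
Levels (CPM of summed UMIs, log axis) of 17 genes in zone 3 nuclei (filled circles) and other hepatocyte nuclei (open squares) of the libraries labelled Flox (blue) and HKO (orange), with 95% Poisson intervals. Oat to Cyp2e1 lie higher in zone 3 in both libraries, and Pck1 to Gls2 lie lower.

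The library labelled HKO was then set against that labelled Flox within zone 3. Among genes with at least 50 UMIs over both libraries, 10299 were measured, of which 206 were 2-fold or more higher in the library labelled HKO (2.00%) and 257 were 2-fold or more lower (2.50%), and the median log2 ratio of all genes was -0.02. Most of these differences were also present in the other hepatocytes. Of the 206 higher genes 203 were also higher in the other hepatocytes, 122 of them by 2-fold or more. Of the 257 lower genes 251 were also lower there, 130 by 2-fold or more. The 122 genes are 59.2% of the zone 3 calls and 67.4% of the 181 calls in other hepatocytes, and the 130 genes are 50.6% and 66.3% of the 196 calls there. With 1 library per label, the difference may belong to the genotype, the animals, or the preparation, and these cannot be told apart.

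Of 15 measured Wnt targets 1 was 2-fold or more higher in the library labelled HKO (*Ccnd1*) and 2 were lower (*Sp5* and *Lect2*). Over all measured genes the shares were 2.00% higher and 2.50% lower. The median log2 ratio of the Wnt targets was -0.04. *Axin2* had a ratio of 1.13 (0.98–1.30), *Rnf43* of 0.97 (0.91–1.04), *Notum* of 1.01 (0.92–1.11), *Nkd1* of 1.17 (0.87–1.57), and *Rhbg* of 0.89 (0.67–1.17), all with intervals that include 1. *Lgr5* was slightly lower (0.90, 0.81–0.99) and *Tbx3* slightly higher (1.26, 1.20–1.33). *Cyp2e1* (0.63, 0.61–0.65) and *Cyp1a2* (0.61, 0.54–0.68) were lower without reaching 2-fold. Those past 2-fold were *Sp5* (34.0 and 14.6 CPM, ratio 0.43, 0.31–0.58), *Lect2* (107 and 47.4 CPM, ratio 0.44, 0.37–0.52), and *Ccnd1* (26 and 139 UMIs, 3.66 and 36.8 CPM, ratio 10.0, 6.57–15.9). Of the 22 measured pathway components none reached 2-fold in either direction, and *Bcl9l*, a β-catenin coactivator, was highest at 109 and 166 CPM (ratio 1.53, 1.37–1.70).

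For the rule genes the ratios were 1.28 for *Glul* and 1.11 for *Slc1a2*, given without further reading because these genes chose the nuclei. Of 18 measured genes of ammonia and glutamate handling, the rule genes included, 1 was higher (background 2.00%) and 1 lower (background 2.50%). *Slc1a4* was at 6.76 and 14.8 CPM (ratio 2.19, 1.46–3.29). *Nags*, which makes the activator of the first urea cycle enzyme, was at 35.2 and 15.1 CPM (0.43, 0.32–0.57). The rest lay between those values. *Oat* had a ratio of 0.85 (0.80–0.91), *Glud1* of 1.05 (0.997–1.12), *Gpt2* of 1.43 (1.34–1.53), *Gpt* of 0.74 (0.68–0.81), *Got1* of 1.69 (1.41–2.02), and *Got2* of 0.73 (0.66–0.81). *Slc38a2* stood at a ratio of 1.46 (1.38–1.54).

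Genes for pericentral xenobiotic metabolism leaned lower in the library labelled HKO, with 16 of 23 ratios below 1 and a median log2 ratio of -0.30. However, only 2 were 2-fold or more lower (background 2.50%) and 1 higher (background 2.00%). *Cyp2e1* was 1.58-fold lower and *Cyp1a2* 1.65-fold lower. *Cyp2c54* was at 134 and 22.8 CPM (ratio 0.17, 0.13–0.21) and *Cyp2c50* at 488 and 179 CPM (0.37, 0.34–0.40), while *Cyp2a5* was at 373 and 482 CPM. In other hepatocytes the same list had a median of -0.22, and *Cyp2c54* and *Cyp2c50* were lower as well. *Cyp2c* genes are close paralogs, so that reads may be split unevenly among them. *Gstm3*, a glutathione transferase gene, was higher with 16 and 42 UMIs.

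Of 20 measured periportal genes 1 was higher and 3 were lower in the library labelled HKO, against 2.00% and 2.50% of all measured genes. The list had a median log2 ratio of -0.27 in zone 3 and -0.01 in other hepatocytes. *Hal* (87 and 11 UMIs, ratio 0.24, 0.11–0.45) and *Cyp2f2* (111 and 15 UMIs, ratio 0.25, 0.14–0.44) were lower in zone 3, as was *Agxt* (89 and 18 UMIs). *Igf1*, the growth hormone-induced growth factor, was higher, at 132 and 388 CPM (2.94, 2.71–3.20). At 1000 UMIs per nucleus *Hal* was detected in 0.680% and 0.314% of zone 3 nuclei against 7 of 692 (1.01%) and 5 of 500 endothelial reference nuclei, and *Cyp2f2* in 1.65% and 0.314% against 3.03% and 3.20%. The zone 3 levels of both genes did not stand above the background share, so that no difference in their expression is read from these ratios.

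Of the lists shown, those with known sex bias in liver had the medians farthest from 0, although all mice were male. Of 19 measured male-biased genes 18 were 2-fold or more lower in the library labelled HKO, against a background of 2.50%, and 0 were higher. Their median log2 ratio was -2.16 in zone 3 and -3.14 in other hepatocytes. *Selenbp2*, a selenium-binding protein gene, went from 1650 to 14 UMIs (232 and 3.70 CPM). *Hsd3b5*, a male-specific steroid dehydrogenase gene, had 207 and 0 UMIs, which is at least 36.8-fold lower against the limit of 3 counts in the library. Major urinary protein genes were among the lowest: *Mup7* was at 200 and 3.17 CPM, *Mup11* at 527 and 14.6 CPM, *Mup1* at 87.9 and 2.12 CPM, and *Mup17* at 466 and 17.7 CPM. *Mup20* did not reach 2-fold, at 697 and 646 CPM. It was detected in 39.4% and 36.0% of zone 3 nuclei and in 48.3% and 39.4% of endothelial reference nuclei, so that its zone 3 level did not stand above the background share, and in other hepatocytes its ratio was 0.64 (0.63–0.65). Mup genes are near-identical copies, and the split of reads among them is uncertain.

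Of the 5 female-biased genes with enough UMIs 4 were 2-fold or more higher, against a background of 2.00%, with a median log2 ratio of 2.81 in zone 3 and 1.87 in other hepatocytes. *Cyp2b9* was at 23.3 and 175 CPM (ratio 7.54, 6.35–9.002), *Cyp2b13* at 2.54 and 34.1 CPM, and the organic anion transporter gene *Slc22a27* at 4.37 and 36.8 CPM. Another 14 genes of that list had under 50 UMIs and are not counted. Transcripts of the sex chromosomes did not differ in the same way. *Xist*, which is expressed from the inactive X of females, had 8 and 6 UMIs in the members, and the Y-linked *Kdm5d* (112 and 127 CPM), *Eif2s3y* (157 and 166 CPM), *Uty* (141 and 191 CPM), and *Ddx3y* (157 and 210 CPM) were present in both libraries. The lower male-biased and higher female-biased genes were thus measured in nuclei with Y-linked transcripts in both libraries.

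Genes of bile acid metabolism included members with large differences in either direction, 2 higher (background 2.00%) and 4 lower (background 2.50%) of 22. The lower ones were *Slco1a1*, *Cyp7b1*, *Hsd3b7*, and *Cyp8b1*. *Slco1a4*, a sinusoidal uptake transporter gene, was at 65.5 and 394 CPM (6.02, 5.42–6.69), and *Abcc4*, a basolateral efflux pump gene, had 8 and 75 UMIs (ratio 17.6, 8.49–42.3). *Slco1a1*, the male-biased uptake transporter gene, was at 522 and 124 CPM (0.24, 0.22–0.26). *Cyp8b1*, which sets the cholic acid share of bile acids, was at 51.6 and 19.6 CPM (0.38, 0.29–0.49). *Cyp7a1*, the rate-limiting enzyme of bile acid synthesis, was higher without reaching 2-fold, at 1155 and 1822 CPM (1.58, 1.53–1.63). The direction within this list was therefore mixed, and its median log2 ratio was -0.10.

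Of 17 de novo lipogenesis genes 6 were 2-fold or more higher in the library labelled HKO, against a background of 2.00%, and 0 were 2-fold lower, with 15 ratios above 1 and a median log2 ratio of 0.71 in zone 3 and 0.49 in other hepatocytes. This list is the study's own. *Fasn*, fatty acid synthase, was at 47.1 and 162 CPM (3.43, 3.001–3.94). *Acaca*, which makes malonyl-CoA, was at 125 and 370 CPM (2.95, 2.71–3.21), and *Scd1*, the stearoyl-CoA desaturase, at 197 and 513 CPM (2.61, 2.43–2.79). *Hsd17b12* (0.81, 0.72–0.91) and *Acss2* (0.99, 0.89–1.10) were at the low end. Of 21 cholesterol synthesis genes 20 had ratios above 1. Of these 2 were at 2-fold or more (background 2.00%), including *Fdps* (17.1 and 78.3 CPM), while *Ebp* stood at 36.2 and 18.8 CPM (0.52, 0.39–0.68).

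Fatty acid oxidation genes, also from the study's list, had 0 of 25 members past 2-fold in either direction, 18 ratios below 1, and a median log2 ratio of -0.22. *Acox2* (0.55, 0.48–0.63) and *Cpt2* (0.63, 0.46–0.86) were lowest and *Hadhb* (1.33, 1.22–1.45) highest. Of 18 genes of lipid droplets 1 was 2-fold lower (background 2.50%), *Fitm1*, at 59.3 and 25.7 CPM (0.43, 0.34–0.54). *G0s2*, an inhibitor of triglyceride lipase, was at 2057 and 1256 CPM (0.61, 0.59–0.63), and *Plin2*, the main coat protein gene of hepatocyte droplets, at 492 and 417 CPM. Of 15 hypoxia and glycolysis genes 6 were 2-fold or more higher (background 2.00%) and 0 lower, with a median log2 ratio of 0.70. Pyruvate kinase *Pklr* was at 21.7 and 116 CPM (5.35, 4.44–6.47) and *Ankrd37*, a hypoxia-inducible gene, had 22 and 46 UMIs. Glucose transporter *Slc2a1* was lowest, with 65 and 24 UMIs (0.69, 0.42–1.12). Lists of fat synthesis, cholesterol synthesis, and glycolysis thus had medians above that of all genes, and that of oxidation a median below it.

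**Figure D3:**
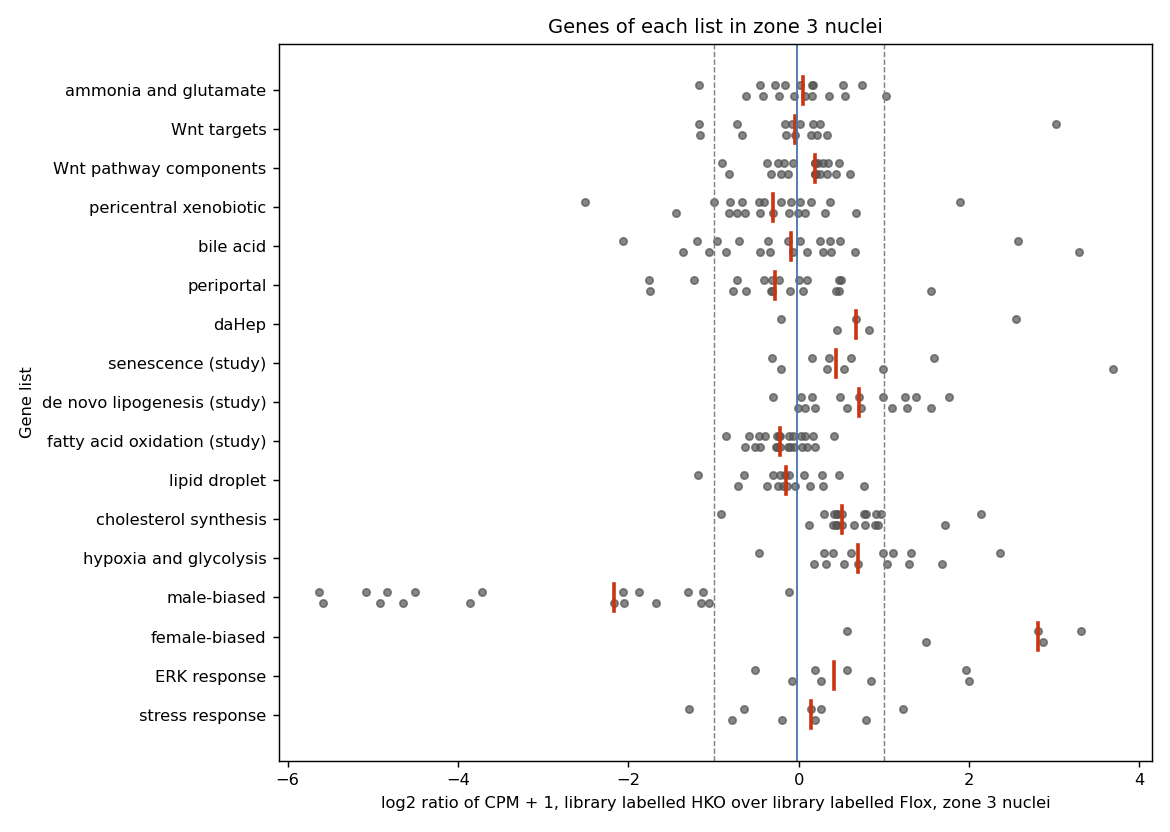
Log2 ratios of CPM plus 1 between the libraries labelled HKO and Flox in zone 3 nuclei, with 1 point per measured gene, the median of each list as a red bar, the median of all genes as a blue line, and 2-fold limits as dashed lines. Male-biased genes have a median of -2.16 and female-biased genes of 2.81, while Wnt targets have a median of -0.04.

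Of the disease-associated hepatocyte (daHep) genes that the study follows, 5 were measured. In both libraries 1 was 2-fold lower in zone 3 than in other hepatocytes (*Nrg1*) and 0 were higher. Over all measured genes the shares were 1.69% lower and 1.34% higher. *Nrg1*, neuregulin 1, was at 3.94 and 28.0 CPM in zone 3 (28 and 106 UMIs, ratio 7.11, 4.65–11.2) and at 16.1 and 89.1 CPM in other hepatocytes. Within the members it was lowest where the rule genes were highest, at 2.11 and 12.7 CPM. At 1000 UMIs per nucleus it was detected in 0.291% and 2.52% of zone 3 nuclei. In endothelial reference nuclei the shares were 4.62% and 4.80%, which those of zone 3 did not exceed. Whether endothelial nuclei hold *Nrg1* transcripts of their own was not tested, so that their share cannot be taken as a background level. *Klf6* was at 42.3 and 75.9 CPM (1.80, 1.52–2.12), *Jun* at 72.7 and 116 CPM (1.60, 1.41–1.82), and *Anxa2* at 11.0 and 15.3 CPM (1.40, 0.98–1.99), against 4.24 and 10.6 CPM for *Anxa2* in other hepatocytes. *Gdf15*, a stress-induced cytokine gene, was at 99.6 and 86.2 CPM (0.87, 0.76–0.99), and *Sox4* had 4 UMIs in each library. Of 5 measured daHep genes 1 was 2-fold higher in the library labelled HKO (*Nrg1*), against 2.00% of all measured genes. The list's median log2 ratio was 0.67 in zone 3 and 1.15 in other hepatocytes.

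Of 41 senescence genes on the study's list only 10 had enough UMIs in zone 3. Of these 2 were 2-fold higher, including *Cdkn1a*, against 2.00% of all measured genes. *Icam1* (21.1 and 43.1 CPM, 2.04, 1.62–2.56) fell just short on the scale with 1 CPM added. *Cdkn1a*, the cell cycle inhibitor p21, had 64 and 110 UMIs (9.02 and 29.1 CPM, ratio 3.23, 2.35–4.46). It stood at 12.0 and 40.5 CPM in other hepatocytes. With nuclei thinned to equal depth, it was detected in 1.17% and 3.46% of zone 3 nuclei and 2.89% and 1.60% of endothelial reference nuclei. Its zone 3 share thus did not stand above the endothelial share in the library labelled Flox. In the library labelled HKO the intervals of both shares overlapped (2.18–5.19 and 0.69–3.13). Other hepatocytes stood at 1.32% and 3.73%. Whether endothelial nuclei hold *Cdkn1a* transcripts of their own was not tested, so that their share cannot be taken as a background level. The ratio of 3.23 is therefore given as a value only. Of 8 measured ERK response genes 2 were 2-fold or more higher (background 2.00%) and 0 were 2-fold lower (background 2.50%). Their ratios were above 1 for 6 genes and below 1 for 2. The list's median log2 ratio was 0.41 in zone 3 and 0.58 in other hepatocytes. *Egr1* had 39 and 94 UMIs and *Ier3* 24 and 61 UMIs, both more than 2-fold higher, and *Dusp6* was at 98.8 and 179 CPM. *Phlda1* was lower at 595 and 418 CPM (0.70, 0.66–0.74). Of 9 stress response genes 1 was 2-fold higher, *Fgf21* (21.8 and 52.4 CPM), and 1 lower, *Dnajb9* (51.7 and 20.6 CPM). Over all measured genes the shares were 2.00% higher and 2.50% lower. The chaperone gene *Hspa5* stood at 334 and 194 CPM (0.58, 0.53–0.63).

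The other genes at the extremes of the comparison were mostly not on these lists, but *Mup12* was on that of male-biased genes. Besides *Cyp2b13*, *Ccnd1*, *Cyp2b9*, *Slc22a27*, *Slco1a4*, and *Nrg1*, the highest included *Dzip1l* (4.37 and 28.0 CPM), *Fmo2*, a flavin monooxygenase gene (28.0 and 155 CPM), and *Ephb2*, an ephrin receptor gene (5.64 and 33.6 CPM). Among the lowest, *Serpina1e*, an α1-antitrypsin paralog, was at 57.6 and 1.59 CPM, and *Cfd*, complement factor D, at 30.6 and 1.06 CPM. *Mup12* (40.3 and 1.85 CPM) and *Mup16* (49.5 and 2.38 CPM) completed the 10 lowest.

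Finally, the ratio between the libraries in zone 3 was set against that in other hepatocytes, to find genes whose difference depended on the zone. Of 8902 genes with at least 100 UMIs, 19 had a log2 ratio at least 1 higher in zone 3 (0.213%) and 21 at least 1 lower (0.236%), and no test of these differences was possible. *Susd4* had the highest difference (1.53): it was at 78.8 and 41.8 CPM in zone 3 and at 25.6 and 3.95 CPM elsewhere, so that its preference for zone 3 was 3.07-fold and 10.6-fold. *Tsc22d4* (1.502), *Capn8* (1.41), and *Saa1* (1.38) were also among the 5 highest. *Cyp2b9* (-1.69) and *Rcan2* (-1.64) were at the other end. *Cyp2b9* was 15.7-fold higher in zone 3 than elsewhere in the library labelled Flox and 3.06-fold higher in the library labelled HKO, where other hepatocytes also held it at 57.3 CPM.

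The lowest differences of all rested on few nuclei. The imprinted RNA *Meg3* (-3.13) had 240 UMIs in 19 zone 3 nuclei of the library labelled Flox, of which 1 nucleus held 87 (36.3%), and 11 UMIs in the library labelled HKO. The antibody genes *Igkc* (-2.68) and *Igha* (-2.33) belong to plasma cells, and 1 nucleus held 126 of 176 *Igkc* UMIs (71.6%) and 1 nucleus held 94 of 109 *Igha* UMIs (86.2%) in zone 3 of the library labelled Flox. These values are therefore values of single nuclei. Of the Wnt targets, *Ccnd1* (1.29) passed a difference of 1.

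**Figure D4:**
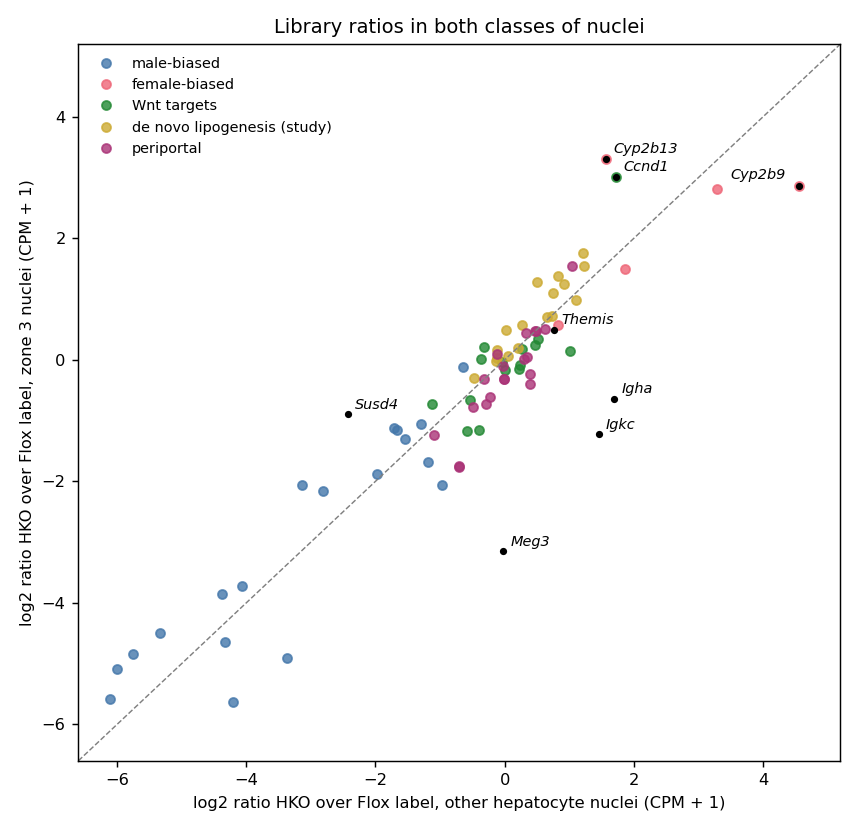
Log2 ratio of CPM plus 1 between the libraries labelled HKO and Flox in other hepatocyte nuclei (x axis) and zone 3 nuclei (y axis), with 1 point per gene of 5 lists and black points for genes named in the text. Most genes lie near the dashed line of equal ratios, while Meg3, Igkc, and Igha lie below it with differences of -3.13, -2.68, and -2.33.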

How the data were processed

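Nuclei from snap-frozen liver were stained, sorted, and profiled with 10x 3′ chemistry, 1 library per genotype. The authors deposited raw counts of UMIs for each gene in each barcode, made with Cell Ranger 8.0.1 on the GRCm38 (mm10) reference with intronic reads left out, with no normalization. Each table held 32285 genes, and the lowest barcode total was 500 UMIs. Of the 9363 and 10748 barcodes, 9360 and 10721 held at least 300 genes, so that the study's limit of 300 genes had not been applied. Intronic reads carry much of the RNA of nuclei, and their absence lowers counts. The tables hold 40 rows that repeat a gene symbol, and these were not merged.

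Counts were summed over the nuclei of a class and library and scaled by their total to CPM (Python 3.11.15, pandas 2.3.3, scipy 1.17.1). Ratios carry no pseudocount, log2 ratios carry 1 CPM, and called means 2-fold or more. Intervals are exact Poisson for levels, exact conditional binomial for ratios, Clopper-Pearson for shares, and a log-normal approximation for ratios of shares, at the 95% level. UMIs per nucleus limit the precision. The intervals of levels and ratios cover counting error in the summed UMIs and leave out variation between nuclei. Endothelial reference nuclei held at least 3 UMIs of *Ptprb* and *Clec4g* and none of the other 6 excluded markers. For shares of nuclei with a UMI, nuclei were thinned to 1000 UMIs and shallower nuclei left out. With 1 library per label there was no test. The steps were tested on simulated data. No doublets were removed for the values given. Alternatives changed the rule, the depth and marker limits, the pseudocount, the minimum UMIs of a gene, the scaling (TMM factors of edgeR 4.0.16), the weight of nuclei, and the removal of 701 and 920 likely doublets by Scrublet in scanpy 1.11.5.

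The members and the 27 gene lists were chosen with earlier results of these data known. Named genes are the zone 3 markers, the measured genes of 4 lists (ammonia and glutamate, Wnt targets, daHep, and THEMIS partners), the 2 highest and 2 lowest of other lists, the 10 highest and 10 lowest of each comparison with at least 100 UMIs, and the 5 highest and 5 lowest differences between classes. Other genes named were chosen after their values were seen, and low or uninformative genes of these groups are left out. A few genes that the rule would name are not reported here.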

Additional observations from a re-analysis of the deposited data

Results flagged for a closer look

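A difference between the libraries that had opposite directions in zone 3 and in other hepatocytes, with both intervals on opposite sides of 1, was found for 8 of the named genes. These differences of differences were not tested, since there was 1 library per label. *Ldha*, the lactate dehydrogenase subunit gene, had a log2 ratio of the library labelled HKO to that labelled Flox of 0.41 in zone 3 and -0.29 in other hepatocytes, a difference of 0.70. *Lgr5* had -0.15 and 0.22, a difference of -0.38, and *Cyp3a11*, a cytochrome P450 gene, had -0.21 and 0.33, a difference of -0.54. The metabolic genes *Mgll* (0.13 and -0.17, difference 0.30), *Hacd3* (0.16 and -0.12, difference 0.27), and *Slc38a3* (0.16 and -0.06, difference 0.22) differed by little. The antibody genes *Igkc* (-1.22 and 1.46, difference -2.68) and *Igha* (-0.64 and 1.70, difference -2.33) rested on single nuclei in zone 3, as given above.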

How the results depend on the processing

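No paired analysis was possible because each label had 1 library. Of the summary results under all alternatives, 93 values stayed, 17 moved, and 1 reversed. Counts of genes have no direction here and stayed when within a fixed fold of the main count. Of the values of single genes and the list medians, 8186 stayed, 538 moved, and 1 reversed. These were called reversed only where the main log2 ratio was 1 or more in size. Changes of sign in smaller ratios are therefore not shown by these counts. The ratio of zone 3 shares, 0.879, was 1.02 with *Glul* alone in the rule (13.0% and 13.4%), 0.803 with a depth limit of 1000 UMIs, and 0.539 over all nuclei with 300 genes. With a minimum of 20 UMIs a gene the count of genes higher in the library labelled HKO went from 206 to 357 and the differences between classes to 74 higher and 87 lower (from 19 and 21). With a minimum of 200 UMIs the counts were 89 higher and 131 lower between the libraries, 101 higher and 130 lower in zone 3, 13 lower differences, and 14 list genes higher in the library labelled HKO (32 before). With 5 CPM added they were 125 higher and 120 lower between the libraries, 103 lower in zone 3, and 10 differences in each direction. With *Glul* alone 12 differences were lower, and *Igkc* had a log2 ratio between the libraries of 0.30 in zone 3 (-1.22 before). A minimum changes how many genes are measured, and a larger pseudocount shrinks the ratios of low genes. The cause of the other shifts was not tested. No scaling moved the median of all genes by 0.1 on the log2 scale. Genes under 50 UMIs were left out of the main counts by the minimum, and depth limits the precision of their ratios.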

Other observations

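Several genes outside the lists were read after their values had been seen, and are given as values with no test. In zone 3 nuclei, *Socs2* and *Cish*, feedback inhibitors induced by cytokine and growth hormone receptors, were higher in the library labelled HKO, at 24.5 and 112 CPM (ratio 4.59, 3.84–5.50) and at 11.6 and 49.2 CPM (4.26, 3.27–5.59). The prolactin receptor gene *Prlr* was at 152 and 403 CPM (2.66, 2.46–2.88) and the leptin receptor gene *Lepr* had 27 and 87 UMIs. *Egfr*, the epidermal growth factor receptor gene, was lower, at 219 and 52.9 CPM (0.24, 0.21–0.28). In other hepatocytes these genes differed in the same direction, with *Socs2* at 16.5 and 80.2 CPM and *Egfr* at 380 and 96.6 CPM.

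Some genes of the endoplasmic reticulum, chosen in the same way, were lower in the library labelled HKO. *Sdf2l1* had 97 and 11 UMIs (ratio 0.21, 0.10–0.40), *Manf*, a secreted stress-response factor, was at 74.4 and 25.1 CPM (0.34, 0.27–0.42), the disulfide isomerase gene *Pdia6* at 70.0 and 24.6 CPM (0.35, 0.28–0.44), and the calcium-binding chaperone gene *Calr* at 127 and 61.4 CPM (0.48, 0.42–0.56). These are zone 3 values, and in other hepatocytes the ratios of these genes were 0.21, 0.35, 0.49, and 0.52 in the same order.

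Between zone 3 and other hepatocytes, *Slc13a3*, a dicarboxylate transporter gene, stood at 64.4 and 57.7 CPM against 4.59 and 7.35 CPM, and *Mycn*, a MYC family transcription factor gene, at 24.2 and 20.6 CPM against 3.38 and 2.84 CPM. *Ihh*, a hedgehog ligand gene, was at 6.20 and 24.6 CPM against 1.28 and 4.38 CPM.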
